A study of Homo sapiens with 34 samples.

Results

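Cells sorted at day 16 of haematopoietic differentiation as CD43+/CD45+ were compared with CD43-CD45- cells of the same day, over all genes of the expression table. The comparison used 6 of the 34 samples of the series, 3 replicates of each population, taken by their sample labels. All samples came from H1, an established human embryonic stem cell line, so a replicate is a separate differentiation of 1 line. H1 cells were aggregated into embryoid bodies, attached to collagen IV with BMP4 and VEGF165, and then kept in a medium with VEGF as the one added factor. No haematopoietic cytokine was supplied to either population. Day 12 cells sorted on CD43 alone (3 CD43+ and 3 CD43- samples) served for the comparison of the CD43 difference between days. The day 16 sort also used CD45, so the day and the gate cannot be told apart, and cells carrying only 1 of these antigens are not described as a population of their own. The label CD43+/CD45+ does not say whether both antigens were required.

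CD43, encoded by SPN, is a sialomucin that appears on the earliest blood cells formed from pluripotent stem cells and separates them from endothelium. CD45, encoded by PTPRC, is a protein tyrosine phosphatase of nucleated blood cells and is gained later in the same process. Blood cells arise from haemogenic endothelium, and the adherent cells that remain in such cultures include endothelium, mesenchyme and epithelium, which secrete matrix and growth factors. Macrophages, granulocytes, mast cells, megakaryocytes and erythroid cells are the usual early products.

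The values are GC-normalised tag counts rounded to whole numbers, in which each sample holds the same set of values in another order. Each sample summed to 17856940 over 20255 genes, with a median of 197. In each, 1292 genes were at 0 and 10 shared the ceiling, 90700. Sequencing depth is therefore unknown, and a gene at 90700 may differ by more than its values show. Levels are not compared between genes because the values are not per length. High values lie in wide steps, such as 37190, 48061 and 90700. Equal values in replicates there do not show an absence of spread, and gaps between replicates may be single steps. At day 16, replicates of a population correlated at a Pearson r of 0.973 to 0.987 across genes on the log2 scale, against 0.759 to 0.807 between the populations. A gene was called higher or lower in CD43+/CD45+ cells when limma's p-value, after Benjamini-Hochberg adjustment, was below 0.05 and the fold change above 4. Fold changes are differences of mean log2(value + 1), given with their standard error (SE, n = 3 against 3), and understate the change of low genes. The SE rests on a spread pooled by limma over the 11 populations of the fit, not on the populations compared alone. It is therefore the same for a gene at day 12 and day 16. In bulk samples, fewer cells of a type and less RNA per cell cannot be told apart.

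The sort antigens were recovered in the transcripts. SPN (chromosome 16, 29662979 to 29670876, GRCh38) stood at 2870, 2796 and 2338 in CD43+/CD45+ replicates 1, 2 and 3 and at 84, 328 and 122 in the CD43-CD45- replicates. PTPRC (chromosome 1, 198638671 to 198757283) stood at 12014, 10084 and 15868 against 18, 42 and 22. Neither gene overlapped between populations, and the log2 fold changes were 4.14 (SE 0.37, adjusted p = 1.6e-10) for SPN and 8.87 (SE 0.92, adjusted p = 2.7e-09) for PTPRC. Both transcripts were highest, within the CD43-CD45- population, in replicate 2.

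Of 19788 genes tested, 5101 were called, which is 25.8%. The adjusted p alone passed for 67.4%, and the 3 CD43+/CD45+ values all lay above the other 3 for 40.3% and all below for 32.7%. CD43+/CD45+ cells were higher for 2413 genes (12.2%) and lower for 2688 (13.6%). Counts of called list members below are to be read beside these shares. The lower genes differed by more, with 346 beyond 64-fold against 188 of the higher genes. Of 16324 protein-coding genes 1800 were higher and 2460 lower, whereas of 263 genes with a LINC name, long intergenic non-coding RNAs, 60 were higher and 22 lower. Of the higher genes, 71.9% were also called higher at day 12, 47.6% at day 9 and 21.3% at day 6 in CD43+ against CD43- cells. Of the lower genes, 81.3% were also called lower at day 12, 66.5% at day 9 and 38.4% at day 6. Over all genes tested, 11.8% were called higher and 14.4% lower at day 12. Such shares are not given here for days 9 and 6, so the overlaps on those days have no background beside them. A gene could be called at day 16 and miss the threshold at day 12 without a difference between the days. There were 1173 such genes, and the difference itself was called for 256 of them.

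Of the 12 largest rises in CD43+/CD45+ cells, 5 were on the macrophage surface list and the others came from complement, oxidase, lysosomal, eicosanoid and pan-leukocyte lists or, for TMIGD3, from none. CTSS, the lysosomal protease cathepsin S (chromosome 1, 150730196 to 150765957), stood at 10085, 9501 and 37190 in the CD43+/CD45+ replicates and at 12, 20 and 20 in the CD43-CD45- replicates, a log2 fold change of 9.74 (SE 0.86, adjusted p = 1.4e-10). CD163, the scavenger receptor for haemoglobin and haptoglobin (chromosome 12, 7470813 to 7503893), stood at 17368, 15868 and 20424 against 19, 26 and 19, a log2 fold change of 9.65 (SE 0.72). The other genes among the 12 largest rises were MS4A7, C1QA and C1QB of the complement C1q complex, the fatty acid and scavenger receptor CD36, PTPRC, the NADPH oxidase subunit CYBB, the lipase PLA2G7, the costimulatory ligand CD86, the beta-glucan receptor CLEC7A and TMIGD3. Their log2 fold changes ran from 8.44 for TMIGD3 to 9.55 for MS4A7, and in none of the 12 did a CD43-CD45- replicate exceed 64.

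The 12 largest falls included genes of matrix, adhesion, guidance and neural lists. RGS4, a regulator of G-protein signalling (chromosome 1, 163068775 to 163076802), stood at 71, 65 and 26 in the CD43+/CD45+ replicates and at 37190, 29030 and 25876 in the CD43-CD45- replicates, a log2 fold change of -9.23 (SE 0.62, adjusted p = 6.2e-13). NPNT, the basement membrane protein nephronectin (chromosome 4, 105894775 to 106004027), stood at 148, 112 and 46 against 48061 in each of the 3 CD43-CD45- replicates. The others were the basement membrane adhesion protein FREM2, the leukaemia inhibitory factor receptor LIFR, the mesenchymal cadherin CDH11, STMN2, SERPINE3, the heparan sulphate sulphatase SULF1, the guidance ligand SLIT3, the metalloprotease ADAMTS9, LRCH2 and the transcription factor SNAI2. Their log2 fold changes lay between -7.99 for SNAI2 and -9.02 for NPNT.

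**Figure D1:**
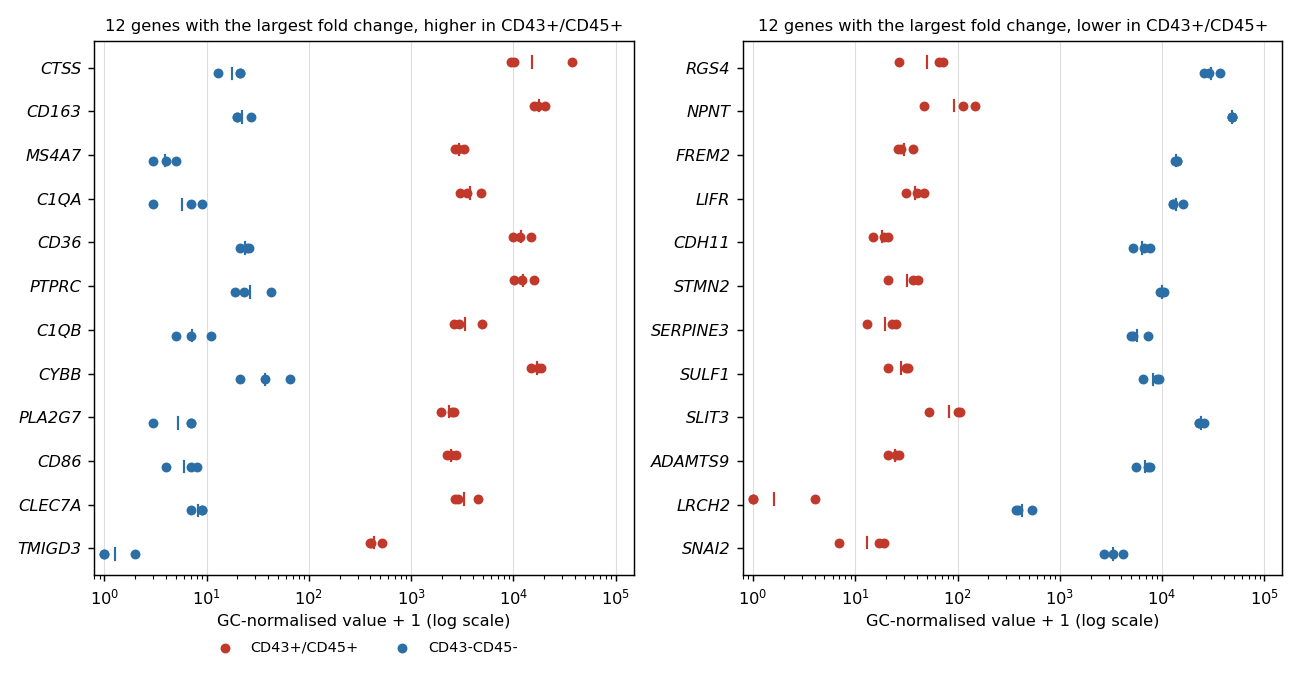
GC-normalised values plus 1 (log axis) of the 12 genes with the largest rise and the 12 with the largest fall in CD43+/CD45+ cells at day 16, 1 point per replicate and a tick at the geometric mean. The red CD43+/CD45+ points and the blue CD43-CD45- points are apart for every gene shown, and CTSS has 1 CD43+/CD45+ replicate, at 37190, far above the other two.

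Bases before the transcription start are shown for leading genes with a single start in the RefSeq table (GRCh38.p14), as examples of the promoters of genes that moved together. Capitals mark GAGGAA or its reverse complement, a core bound by the myeloid factor PU.1, found in 27.9% of the 35116 windows of the table, each running from 250 bases before to 50 bases after a start. Each sequence is the 150 bases before the start, read 5′ to 3′ on the gene's strand.
MS4A7, higher, plus strand, chr11:60378382-60378531: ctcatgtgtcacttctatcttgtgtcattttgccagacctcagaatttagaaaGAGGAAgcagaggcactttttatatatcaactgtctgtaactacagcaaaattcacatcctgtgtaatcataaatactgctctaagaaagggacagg
CYBB, higher, plus strand, chrX:37779909-37780058: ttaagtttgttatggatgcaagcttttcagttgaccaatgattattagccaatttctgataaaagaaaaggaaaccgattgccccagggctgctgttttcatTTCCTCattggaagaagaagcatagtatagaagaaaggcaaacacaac
PTPRC, higher, plus strand, chr1:198638890-198639039: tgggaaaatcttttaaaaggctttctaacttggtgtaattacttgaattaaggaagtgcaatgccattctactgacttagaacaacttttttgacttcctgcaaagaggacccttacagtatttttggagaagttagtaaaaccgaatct
NPNT, lower, plus strand, chr4:105895321-105895470: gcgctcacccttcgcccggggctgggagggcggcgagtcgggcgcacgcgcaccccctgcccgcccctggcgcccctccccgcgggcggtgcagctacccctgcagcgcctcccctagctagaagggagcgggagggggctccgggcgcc
FREM2, lower, plus strand, chr13:38686927-38687076: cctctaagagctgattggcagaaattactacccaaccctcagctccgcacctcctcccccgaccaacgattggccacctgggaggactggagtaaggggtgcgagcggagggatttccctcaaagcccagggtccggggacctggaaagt
These letters were in the windows of 3 of the 5 higher genes that could be shown (MS4A7, CYBB and CD163) and of 0 of the 3 lower genes (NPNT, FREM2 and SLIT3). So few windows cannot be compared with each other or with the 27.9%. The match of CD163 was not within the 150 bases before the start. A match is a run of letters and was not tested as a binding site. Shares of promoters with a motif were not compared between higher and lower genes, because a window was in the table for 66.2% of genes called higher and 72.1% called lower, under the minimum of 80% set for such a comparison.

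Pan-leukocyte genes were higher in CD43+/CD45+ cells almost throughout, 19 of 20 against the 12.2% of all genes, with a median log2 fold change of 4.82 against 0.14 over all genes tested. CD53, a leukocyte tetraspanin, stood at 3326, 2388 and 4904 against 13, 22 and 20. TYROBP, the signalling adaptor of activating myeloid receptors, stood at 5458, 4693 and 6556 against 26, 85 and 76. All 3 CD43+/CD45+ replicates were far above the others for both genes, with log2 fold changes of 7.49 (SE 0.70) and 6.61 (SE 0.93).

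The study named 10 haematopoietic transcription factors for their rise in CD43+ cells of this same series, so their count is not independent support. At day 16, 9 of the 10 were called higher. SPI1, which encodes PU.1, had the largest difference, at 8050, 6442 and 7746 against 54, 250 and 128 (log2 fold change 5.93, SE 0.90). MYB, needed for definitive haematopoiesis, stood at 5550, 3890 and 3158 against 25, 234 and 75. RUNX1, the regulator of the endothelial-to-haematopoietic transition, stood at 6575, 5396 and 6688 against 164, 305 and 211. Their log2 fold changes were 5.72 (SE 0.53) and 4.81 (SE 0.30). GFI1, GATA2, GATA1, GFI1B, LYL1 and TAL1 followed, from 4.18 down to 2.38. LMO2, a bridging protein of the TAL1 complex, was not called and stood at 2096, 2086 and 1850 against 582, 590 and 584, a log2 fold change of 1.78 (SE 0.27, adjusted p = 2.2e-06). In the CD43-CD45- population all 10 factors were highest in replicate 2. Among 21 other myeloid factors 12 were higher and 0 lower, led by the interferon regulatory factors IRF5 (log2 fold change 6.28) and IRF8 (5.94), the granulocyte factor CEBPE (5.71), IKZF1 (5.69) and EGR2 (5.28).

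Macrophage surface genes had the largest median difference of any blood lineage group. Of 29 tested, 25 were higher and 1 lower, with a median log2 fold change of 6.62. For 20 of the 25 the 3 CD43-CD45- replicates were all below 100, against 1797 of the 2413 genes called higher. STAB2, a hyaluronan scavenger receptor of sinusoidal endothelium, was the member called lower, at 20, 24 and 12 against 251, 570 and 858 (log2 fold change -4.71, SE 0.87). Of 21 complement genes 10 were higher and 4 lower, where 12.2% of all genes were higher and 13.6% lower. All 3 C1q chains and the anaphylatoxin receptors C3AR1 (log2 fold change 6.57) and C5AR1 (4.80) were among the higher genes. The proteases that C1q engages, C1R and C1S, were lower, with C1R at 80, 64 and 60 against 1170, 1027 and 1082 and C1S at 110, 180 and 44 against 1252, 1382 and 1252. C7, of the membrane attack complex, and the inhibitor CFI were also lower, at values of at most 106 in every replicate, and CFI was not called with a pseudocount of 10 in place of 1 (log2 fold change -0.91).

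Granulocyte genes were higher as a group. All 13 azurophil granule genes, which encode the proteases and peptides of early neutrophil granules, were called higher, and so were 12 of 14 genes of the later specific and gelatinase granules. LYZ, lysozyme, stood at the ceiling of 90700 in all 3 CD43+/CD45+ replicates and at 1066, 6253 and 2704 in CD43-CD45- cells. The defensin DEFA4 stood at 4074, 2358 and 6002 against 22, 132 and 66 (log2 fold change 6.03, SE 0.79). The later-granule gene LTF, lactoferrin, stood at 396, 134 and 1454 against 0, 6 and 2, and OLFM4 at 938, 322 and 2913 against 2, 3 and 8. In both, CD43+/CD45+ replicate 3 was highest and replicate 2 lowest. Fc receptor and leukocyte integrin genes were higher in 15 of 17, with FCGR3A at 4779, 4074 and 8794 against 19, 14 and 19. The near-identical pairs DEFA1 and DEFA3 and FCGR3A and FCGR3B share reads that the counting could divide between them, so their separate values are uncertain. Of 9 NADPH oxidase genes, 5 were higher and 0 lower. Of 10 S100 genes, 5 were higher, including S100A9 at 22758, 18714 and 47984 against 219, 498 and 384, and S100A16, an epithelial member, was lower.

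Mast cell, basophil and eosinophil genes were higher in 16 of 18. PRG2, the eosinophil major basic protein, stood at 90700, 37190 and 48061 against 765, 3658 and 1674, a log2 fold change of 5.03 (SE 1.35, adjusted p = 0.0018). CLC, the Charcot-Leyden crystal protein, stood at 3205, 1934 and 6244 against 36, 108 and 54. The mast cell tryptase TPSAB1 stood at 276, 214 and 380 against 0, 1 and 1, and its paralogue TPSB2, which shares sequence with it, at 408, 231 and 492 against 2, 8 and 6. The log2 fold changes of CLC and TPSAB1 were 5.80 (SE 0.78) and 7.48 (SE 0.62). KIT, the stem cell factor receptor of mast cells and progenitors, was not called, at 704, 786 and 264 against 210, 236 and 281, and the populations overlapped.

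Megakaryocyte and platelet genes were higher in 18 of 20 but by less, with a median log2 fold change of 2.90. PF4, a platelet chemokine, stood at 10832, 15858 and 5482 against 1062, 3224 and 1582 (log2 fold change 2.48, SE 0.90, adjusted p = 0.017). PPBP, another platelet chemokine, stood at 22818, 37170 and 6913 against 1124, 3606 and 1902 (log2 fold change 3.19, SE 1.08, adjusted p = 0.011). The populations did not overlap, although leaving out CD43-CD45- replicate 1 or CD43+/CD45+ replicate 2 ended the call of PF4 (adjusted p = 0.071 and 0.068), and leaving out the latter ended that of PPBP (adjusted p = 0.057). Both calls were also lost with a pseudocount of 0.1 (adjusted p = 0.092 and 0.094). VWF, made by both endothelium and megakaryocytes, was lower, at 236, 300 and 96 against 740, 937 and 947, a log2 fold change of -2.19 that was -1.70, short of the threshold, without CD43+/CD45+ replicate 3.

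Erythroid genes were higher in 17 of 27 and lower in 0. The fetal globin HBG2 stood at 22812, 37166 and 11498 against 1620, 4148 and 2876, and the embryonic globin HBE1 at 7780, 8977 and 3658 against 836, 1090 and 1819. The log2 fold changes were 2.99 (SE 0.93) and 2.42 (SE 0.67), and HBG2 was not called with a pseudocount of 0.1 (adjusted p = 0.11). HBZ, the embryonic zeta globin, stood the other way, at 163, 158 and 302 against 632, 416 and 1448, and was not called (log2 fold change -1.87, SE 0.85, adjusted p = 0.054). HBA2 overlapped between populations, at 258, 342 and 232 against 224, 142 and 484. SLC4A1, the band 3 anion exchanger of mature red cells, was low in both, at 6, 3 and 17 against 19, 18 and 63. HBG1 and HBG2, and the alpha globin copies, are near identical and their division is uncertain. The surface glycoprotein gene RHAG, of committed erythroid cells, was higher at 1550, 2410 and 800 against 40, 148 and 44.

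CD43-CD45- cells held transcripts of blood genes. Of the genes called higher in CD43+/CD45+ cells, every CD43-CD45- replicate was nonetheless at 100 or more for 11 of 18 megakaryocyte genes and 5 of 13 azurophil genes, against 5 of 25 macrophage surface genes and 453 of 2413 over all genes. These shares were not tested against each other, and a value of 100 does not mean the same level in genes of different length. The summed value of the 20 megakaryocyte genes was 72726 to 163417 in CD43+/CD45+ cells and 12017 to 26747 in CD43-CD45- cells, and that of the 13 azurophil genes was 243764 to 290962 against 8270 to 28499. Replicate 2 of the CD43-CD45- population held the highest value for 13 of 13 azurophil, 19 of 20 megakaryocyte, 19 of 20 pan-leukocyte and 13 of 29 macrophage surface genes, where 31.2% of all genes tested were highest in it. The part of blood cells carried over in the sort in these values was not tested. Without that replicate 13 of 13 azurophil and 18 of 20 megakaryocyte genes were called higher. Without CD43-CD45- replicate 1 the counts were 12 and 16, PRTN3 being the azurophil gene lost (adjusted p = 0.055), and without CD43+/CD45+ replicate 2 they were 13 and 14.

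The CD43+/CD45+ replicates also differed in which was highest for the genes of lineage lists, whose members are not independent. Whether their cell types differed was not tested. Replicate 2 was highest for 18 of 20 megakaryocyte and 18 of 27 erythroid genes, where 28.5% of all genes tested were highest in it. Replicate 3 was lowest for 19 of the 20 megakaryocyte genes, against 30.9% of all genes, and highest for 25 of 29 macrophage surface, 13 of 14 specific granule and 18 of 22 Toll-like receptor genes, against 36.3%. GATA1, the erythroid and megakaryocyte regulator, followed the former order at 1582, 2210 and 870, and CTSS the latter at 10085, 9501 and 37190.

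Lymphoid genes were mostly low. Of 21 tested, 8 were higher and 1 lower, and the count of higher genes was 5 without CD43+/CD45+ replicate 3. NKG7, a cytotoxic granule membrane protein that myeloid cells can also carry, was the member with the largest rise, at 5123, 4777 and 6812 against 70, 270 and 162. EBF1, a B cell factor also found in mesenchyme, was the member called lower, at 4, 0 and 3 against 37, 24 and 34, and was not called with a pseudocount of 10 (log2 fold change -1.76).

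Genes of innate sensing were higher. Of 22 Toll-like receptor and adaptor genes 16 were higher. TLR2, the receptor for bacterial lipoproteins, stood at 6072, 4790 and 7780 against 18, 38 and 20 (log2 fold change 7.93, SE 0.58). TLR8, an endosomal RNA receptor, stood at 1497, 1364 and 2124 against 4, 7 and 8 (7.84, SE 0.46). TLR3, the double-stranded RNA receptor, was the member called lower, at 0, 0 and 6 against 20, 16 and 14, and was not called with a pseudocount of 10 (log2 fold change -1.18). Interleukin-1 and inflammasome genes were higher in 14 of 22, with CASP1, which cleaves pro-interleukin-1 beta, at 3614, 2937 and 4510 against 14, 22 and 12 and IL1B at 1821, 2185 and 2585 against 8, 30 and 20. The antagonist IL1RN was also higher, at 2210, 2128 and 2691 against 16, 29 and 22. IL33, an alarmin of endothelium and stroma, was lower, at 5, 4 and 1 against 110, 82 and 194.

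Chemokine and chemokine receptor genes were higher in 24 of 41 and lower in 3. CCL3 stood at 1772, 1572 and 2478 against 6, 12 and 10, and its receptor CCR1 at 4478, 4376 and 6070 against 12, 43 and 30. CXCL8, the neutrophil attractant, stood at 2918, 1867 and 8800 against 20, 18 and 22. The 3 lower genes were CXCL14, CX3CL1 and the scavenging receptor ACKR3, with log2 fold changes of -5.87, -5.01 and -4.75. Eicosanoid genes were higher in 14 of 24. LTC4S, the leukotriene C4 synthase, stood at 571, 361 and 426 against 2, 22 and 13, whereas the terminal prostanoid synthases PTGIS, PTGES and PTGDS were lower. PTGIS, which makes prostacyclin, stood at 14, 8 and 3 against 1250, 1396 and 1209 (log2 fold change -7.30, SE 0.53). HPGDS, the haematopoietic prostaglandin D synthase, was higher at 98, 72 and 162 against 0, 0 and 2, while PTGDS, the lipocalin-type enzyme of the same reaction, stood at 228, 184 and 217 against 2894, 2804 and 2974.

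Antigen presentation and interferon-stimulated genes moved less. MHC class II genes were higher in 8 of 15, with HLA-DRA at 1684, 1828 and 2322 against 8, 14 and 9 and their transactivator CIITA at 589, 618 and 730 against 40, 32 and 28. MHC class I pathway genes, led by the immunoproteasome subunits PSMB9 and PSMB10, were higher in 5 of 18, where 12.2% of all genes were. B2M, the class I light chain, was at the ceiling in all 3 CD43+/CD45+ replicates, so its log2 fold change of 2.50 is compressed. Interferon-stimulated genes were higher in 9 of 30, against 12.2% of all genes, and lower in 0, with a median log2 fold change of 1.38. OASL stood out at 867, 850 and 876 against 14, 26 and 16. CD43+/CD45+ replicate 3 was lowest for 28 of these 30 genes and CD43-CD45- replicate 2 highest for 27.

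Iron and haem genes were higher in 9 of 24 and lower in 1, where 12.2% of all genes were higher and 13.6% lower. SLC11A1, the phagosomal metal transporter, stood at 8970, 8080 and 9894 against 54, 117 and 62. The metalloreductase STEAP4 stood at 305, 249 and 970 against 0, 1 and 1, a log2 fold change of 8.05 (SE 0.69). HPX, the haem-binding plasma protein haemopexin, was lower, at 4, 12 and 3 against 37, 20 and 44, and was not called with a pseudocount of 10 (log2 fold change -1.42).

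Proliferation genes were higher in 27 of 40 and lower in 0, with a median log2 fold change of 2.18. E2F8, a cell cycle transcription factor, stood at 274, 260 and 468 against 24, 32 and 38, and KIF11, the mitotic spindle kinesin, at 874, 983 and 1439 against 100, 120 and 141. Replicate 3 was the highest CD43+/CD45+ sample for 32 of the 40. The cell cycle inhibitor CDKN1C and the cyclin CCND2 were lower, CDKN1C at 1879, 1870 and 1434 against 13998, 13998 and 12826 and CCND2 at 1284, 1241 and 1037 against 9248, 7780 and 8512. The inhibitors CDKN2C and CDKN2D were higher, with log2 fold changes of 3.42 and 2.78.

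**Figure D2:**
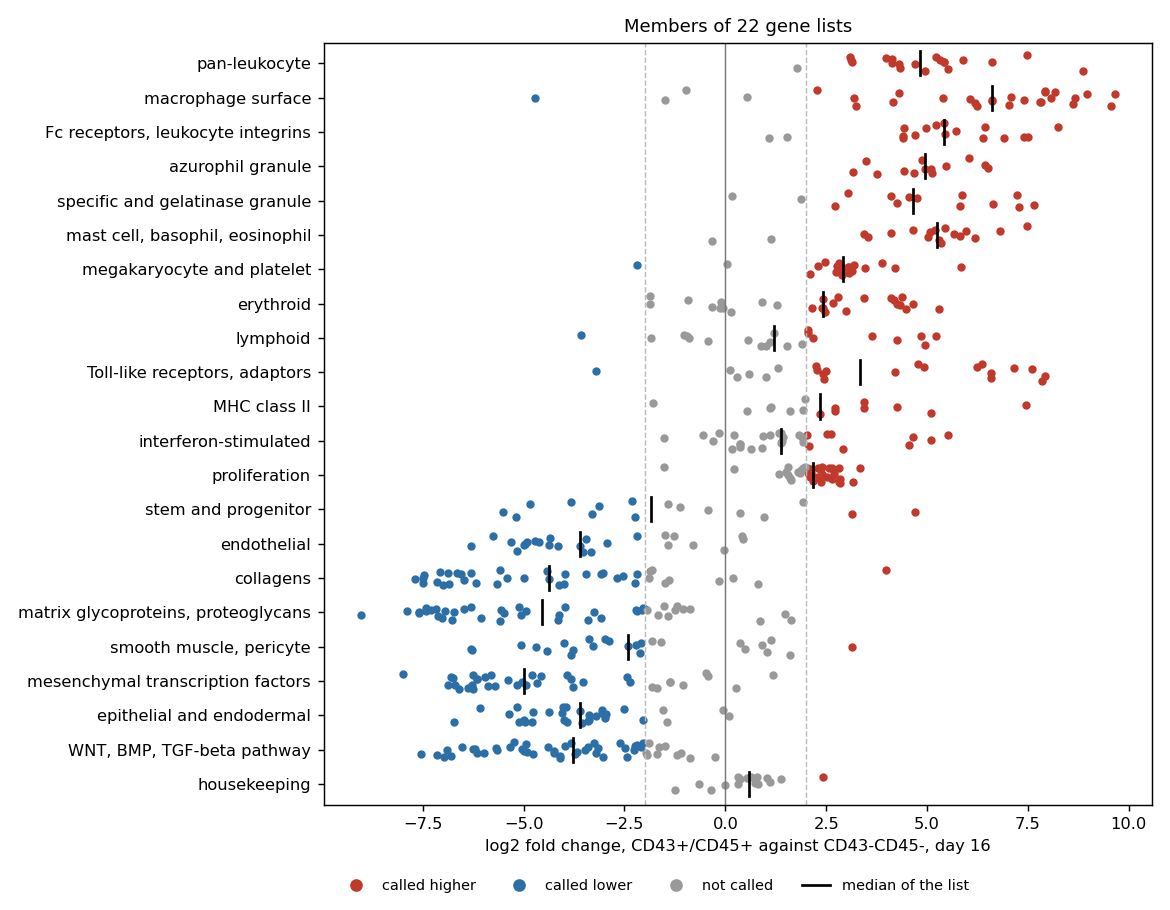
Log2 fold change at day 16 (CD43+/CD45+ against CD43-CD45-) of each tested member of 22 gene lists, 1 point per gene, coloured by call, with a black bar at the median and dashed lines at a fold change of 4. Blood lineage lists lie to the right, with medians up to 6.62 for macrophage surface genes, and endothelial, matrix, mesenchymal and epithelial lists lie to the left, with medians down to -4.99 for mesenchymal transcription factors.

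Of 16 stem and progenitor markers 8 were lower, where 13.6% of all genes were, and 2 were higher, a share close to the 12.2% of all genes. CD34, a marker of both endothelium and blood progenitors, stood at 633, 680 and 467 in CD43+/CD45+ cells and at 5251, 5785 and 6250 in CD43-CD45- cells (log2 fold change -3.29, SE 0.34). THY1, PROM1, the stem cell regulator MECOM and HOXA10 were also lower, from -5.51 to -3.83. The 2 higher genes were SPINK2, a progenitor-associated protease inhibitor listed at 0 in every CD43-CD45- replicate and at 19, 22 and 38 in CD43+/CD45+ cells and not called with a pseudocount of 10, and ANGPT1, the ligand of the TIE2 receptor, at 1188, 2177 and 510 against 98, 148 and 129. Endothelial genes were lower in 18 of 25 and higher in 0. PLVAP, of the diaphragms of fenestrated endothelium, stood at 242, 256 and 173 against 10059, 13287 and 12784, ROBO4 at 8, 18 and 10 against 816, 1102 and 1030, and SOX17, a factor of haemogenic and arterial endothelium, at 6, 34 and 22 against 652, 594 and 652.

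Matrix genes summed to far more in CD43-CD45- cells. Collagens were lower in 30 of 39, where 13.6% of all genes were, and matrix glycoproteins and proteoglycans in 33 of 44. The 39 collagen genes summed to 18342 to 37395 in CD43+/CD45+ cells and to 677154 to 692384 in CD43-CD45- cells. COL4A1, of the basement membrane, stood at 396, 356 and 307 against 48036, 90700 and 90700, and COL5A1 at 722, 633 and 580 against the ceiling of 90700 in all 3 replicates. POSTN, periostin, stood at 215, 198 and 166 against 37186, 25870 and 37186, and TNC, tenascin C, at 20, 17 and 22 against 5186, 3605 and 6354. COL24A1, a fibrillar collagen, was the member called higher, at 9726, 14685 and 2809 against 210, 1037 and 474 (log2 fold change 3.97, SE 0.63). Its order over the CD43+/CD45+ replicates was that of PF4, PPBP and HBG2, with replicate 2 highest and replicate 3 lowest. Matrix protease and inhibitor genes divided into 12 lower and 7 higher of 31, where 13.6% of all genes were lower and 12.2% higher. ADAMTS9, ADAMTS18, MMP16, ADAMTS2 and ADAMTS12 led the former, and MMP17, MMP19, MMP25, TIMP4, ADAM8, ADAM28 and ADAMDEC1 were the latter, TIMP4 not with a pseudocount of 10. ADAMDEC1, a macrophage protease, stood at 168, 168 and 142 and was listed at 0 in every CD43-CD45- replicate.

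Mesenchymal transcription factors were lower in 29 of 38 and higher in 0. For 28 of the 29 all 3 CD43+/CD45+ replicates were below 100, against 2099 of the 2688 genes called lower. HAND1, of extraembryonic and cardiac mesoderm, stood at 94, 80 and 40 against 8678, 7486 and 7773, and SOX9 at 8, 12 and 2 against 722, 749 and 732. HOX genes were lower in 19 of 27 and higher in 0, a count that was 10 when 10 in place of 1 was added before the logarithm, since many are low. HOXB8 stood at 20, 12 and 10 against 772, 654 and 622, and HOXC8 at 4, 3 and 0 against 361, 294 and 356. Smooth muscle and pericyte genes were lower in 16 of 25, with TPM1, a tropomyosin, at 473, 638 and 384 against 10430, 9717 and 11189. ANGPT1 was the member of that list called higher.

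Epithelial and endodermal genes were lower in CD43+/CD45+ cells in 27 of 31 and higher in 0. The fetal plasma protein AFP stood at 462, 446 and 193 against 17368, 10084 and 15868, the keratin KRT19 at 380, 297 and 134 against 15858, 18763 and 15858, and the epithelial cadherin CDH1 at 48, 58 and 36 against 4610, 5558 and 4846. Cardiac muscle genes were lower in 9 of 19, with TNNI1 at 20, 26 and 11 against 2116, 2218 and 1909, and MYBPC3 was called higher at 36, 24 and 58 against 1, 0 and 0. Neural genes were lower in 7 of 14. STMN2, a neuronal microtubule regulator, stood at 36, 40 and 20 against 10446, 9902 and 9501. Pluripotency genes were lower in 5 of 16, where 13.6% of all genes were, and higher in 0. The 16 genes summed to 2944 to 3563 in CD43+/CD45+ cells and to 4939 to 5637 in CD43-CD45- cells. L1TD1 stood at 14, 0 and 25 against 360, 202 and 434.

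WNT, BMP and TGF-beta pathway genes were lower in 42 of 52 and higher in 0. FRZB, a secreted WNT inhibitor, stood at 224, 196 and 112 against 20424 in each CD43-CD45- replicate, the ligand BMP5 at 30, 32 and 10 against 3037, 2809 and 2640, and the WNT agonist RSPO3 at 10, 2 and 5 against 586, 571 and 814. Their log2 fold changes ran from -6.80 to -6.98. Adhesion and junction genes were lower in 25 of 37, with the gap junction protein GJA1 at 52, 52 and 33 against 11498, 11186 and 11498 (log2 fold change -7.96, SE 0.18). Axon guidance genes were lower in 28 of 40, led by SLIT3 and SLIT2, and 3 were higher, the immune semaphorins SEMA4A and SEMA4D and the plexin PLXNC1. Insulin-like growth factor genes were lower in 8 of 18, with IGF2 at 2000, 2234 and 1275 against 48030 in each CD43-CD45- replicate and IGFBP3 at 258, 241 and 238 against 25876, 29030 and 48061. IGF1 was the 1 higher member, at 194, 215 and 260 against 10, 4 and 10.

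Ligands and receptors were divided between the populations. CSF1R, the receptor that macrophages depend on, stood at 25862, 25862 and 22836 in CD43+/CD45+ cells and at 119, 290 and 177 in CD43-CD45- cells (log2 fold change 7.08, SE 0.75). Its ligand CSF1 was lower in CD43+/CD45+ cells, at 264, 282 and 164 against 919, 1138 and 1121 (log2 fold change -2.19, SE 0.27), and the change was -1.95, short of the threshold, without CD43+/CD45+ replicate 3. The other ligand, IL34, was at 8 or less in all 6 samples. KITLG, the ligand of KIT, was lower at 29, 62 and 52 against 310, 218 and 238.

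Receptors of interleukin-6 family cytokines did not all lie on 1 side. LIFR stood at 39, 46 and 30 against 12854, 15874 and 12854, OSMR at 15, 20 and 30 against 528, 648 and 797 and IL11RA at 323, 251 and 278 against 1328, 1340 and 1376, and all 3 were lower in CD43+/CD45+ cells. IL6R, the interleukin-6 receptor, lay the other way at 6472, 5562 and 6592 against 1468, 2036 and 1664 and fell short of the fold threshold (log2 fold change 1.86). The shared subunit IL6ST was present in both populations, at 7163, 8975 and 6369 against 11508, 11508 and 12014, and was not called. Of the ligands, IL11 was lower at 13, 1 and 4 against 541, 466 and 473, OSM was higher at 186, 181 and 265 against 11, 2 and 2, and LIF overlapped at 108, 81 and 188 against 124, 110 and 166.

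The receptors for PDGF and VEGF were lower. PDGFRA stood at 48, 72 and 28 against 2038, 1815 and 2540, and KDR, the main receptor for the VEGF that the medium contained, at 1485, 1506 and 634 against 29000, 37166 and 37166. FLT1, FLT4 and PDGFRB were lower with log2 fold changes of -4.98, -4.87 and -3.99. VEGFA was not called, at 2745, 2499 and 2157 against 6466, 6140 and 6818, a log2 fold change of -1.40 (SE 0.32, adjusted p = 0.00039), and its 3 CD43+/CD45+ replicates lay below the other 3. VEGFC and PDGFD were called lower (log2 fold changes -5.58 and -4.56), whereas PDGFB and PDGFC overlapped between populations. Of the receptors for GAS6 and PROS1, TYRO3 was lower at 50, 45 and 29 against 2600, 2500 and 2255, and AXL and MERTK were not called. CXCL12 and its receptor CXCR4 overlapped at day 16, CXCL12 at 200, 218 and 252 against 207, 217 and 300 and CXCR4 at 1539, 1282 and 1504 against 1422, 1426 and 1570. Over the whole lists, 8 cytokine ligand genes were higher and 10 lower of 33, and 16 receptor genes were higher and 12 lower of 45. Over all genes tested, 12.2% were higher and 13.6% lower. SPP1, TNF, TNFSF10 and TNFSF13B were among the higher ligands. TNFSF11, the RANK ligand, was called at 12, 4 and 2 against a listing at 0, but not without CD43+/CD45+ replicate 1 or with a pseudocount of 10, and its decoy receptor TNFRSF11B was lower at 1, 4 and 1 against 12, 20 and 22, a call also lost with that pseudocount (log2 fold change -1.21).

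**Figure D3:**
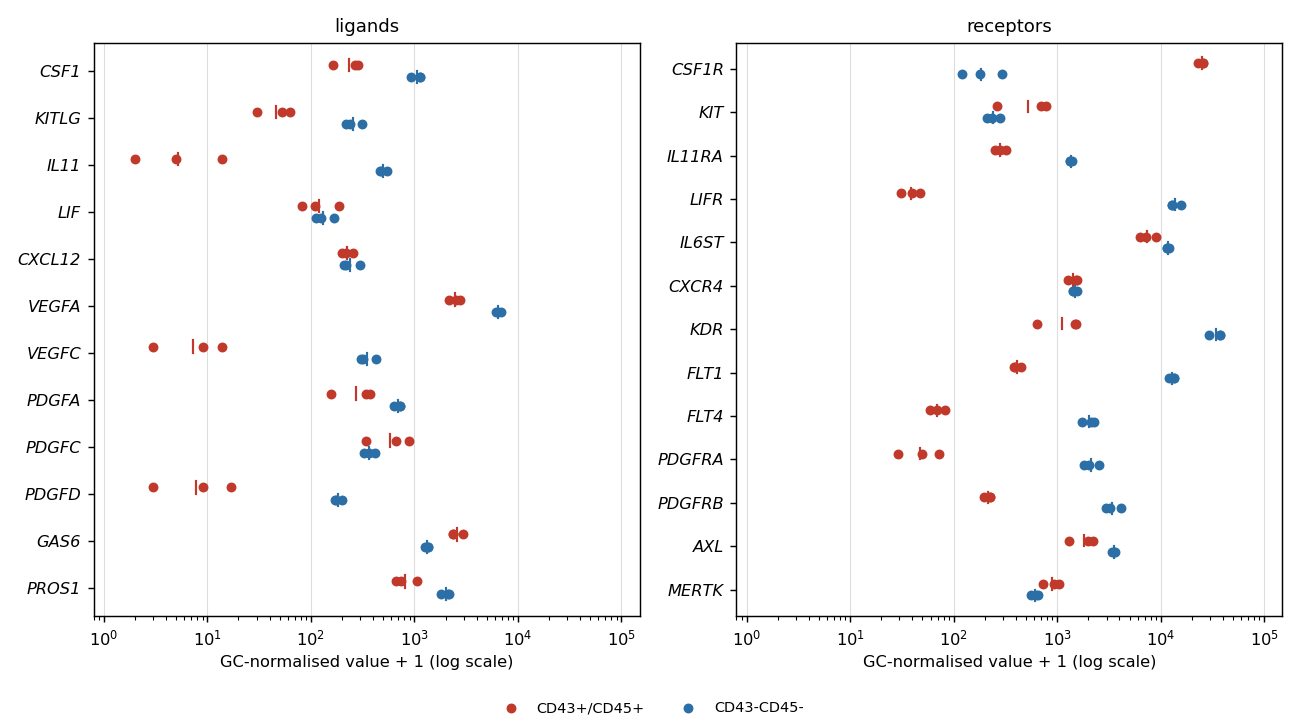
GC-normalised values plus 1 (log axis) of named ligands (left) and receptors (right) at day 16, 1 point per replicate and a tick at the geometric mean, red for CD43+/CD45+ and blue for CD43-CD45- cells. CSF1R lies at 22836 or more in red and at 290 or less in blue while CSF1 lies the other way, and the points of CXCL12 and CXCR4 overlap.

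The CD43 difference at day 16 was then set against that at day 12 by the difference between both log2 fold changes. It was larger at day 16 for 566 genes (2.86%) and smaller for 429 (2.17%), 995 in all (5.03%), at the same thresholds. The count was 537 when only these 4 populations entered the fit. The samples were sequenced at 2 companies, which sample at which is not given in the sources used here, and the part of this in the differences between days was not tested.

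Granule, platelet and globin genes had smaller differences at day 16. The change was called lower for 12 of 13 azurophil, 12 of 20 megakaryocyte and 11 of 27 erythroid genes, and for 4, 4 and 7 of them when only the 4 populations entered the fit. The values of CD43- cells differed between days. PF4 stood at 0, 14 and 136 in day 12 CD43- replicates 1, 2 and 3, HBG2 at 0, 25 and 70 and LYZ at 4, 64 and 1089, against 1062, 3224 and 1582 for PF4, 1620, 4148 and 2876 for HBG2 and 1066, 6253 and 2704 for LYZ in day 16 CD43-CD45- cells. The day 12 replicates spread widely, and replicate 3 was highest for all 3 genes. In CD43+ cells PF4 stood at 1752, 8272 and 5193 at day 12 and HBG2 at 2700, 9714 and 6064. The largest falls were those of HBZ (-8.93), HBA2 (-8.46, SE 1.21) and SLC4A1 (-7.11, SE 0.97), each called higher in CD43+ cells at day 12 and not called at day 16, then PRTN3, PRG2, PF4, HBG2 and HBE1. The day 12 means of HBZ were 3001 in CD43+ and 53 in CD43- cells.

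Macrophage genes had larger differences at day 16 in some members. CD163 stood at 32, 936 and 838 in day 12 CD43- cells and at 19, 26 and 19 in day 16 CD43-CD45- cells, and C1QA at 12, 410 and 502 against 8, 2 and 6. The log2 changes were 5.30 (SE 1.02) and 5.53 (SE 1.21). Day 12 CD43- replicate 1 was far below replicates 2 and 3 of its population and slightly above the day 16 samples for both genes. The change was called higher for 9 of 29 macrophage surface genes, but for 17 without day 12 CD43- replicate 1, 4 without replicate 2 and 3 without replicate 3 of that population, 4 and 3 without day 12 CD43+ replicates 2 and 3, 4 and 5 without CD43-CD45- replicates 1 and 2, and 4 without CD43+/CD45+ replicate 3. It was called for 2 when only the 4 populations entered the fit, and for C1QA the adjusted p was then 0.051. The day 12 sort did not use CD45, and PTPRC stood at 4, 197 and 371 in day 12 CD43- cells against 18, 42 and 22 in day 16 CD43-CD45- cells, so that replicate 1 lay below the day 16 values and replicates 2 and 3 above them.

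**Figure D4:**
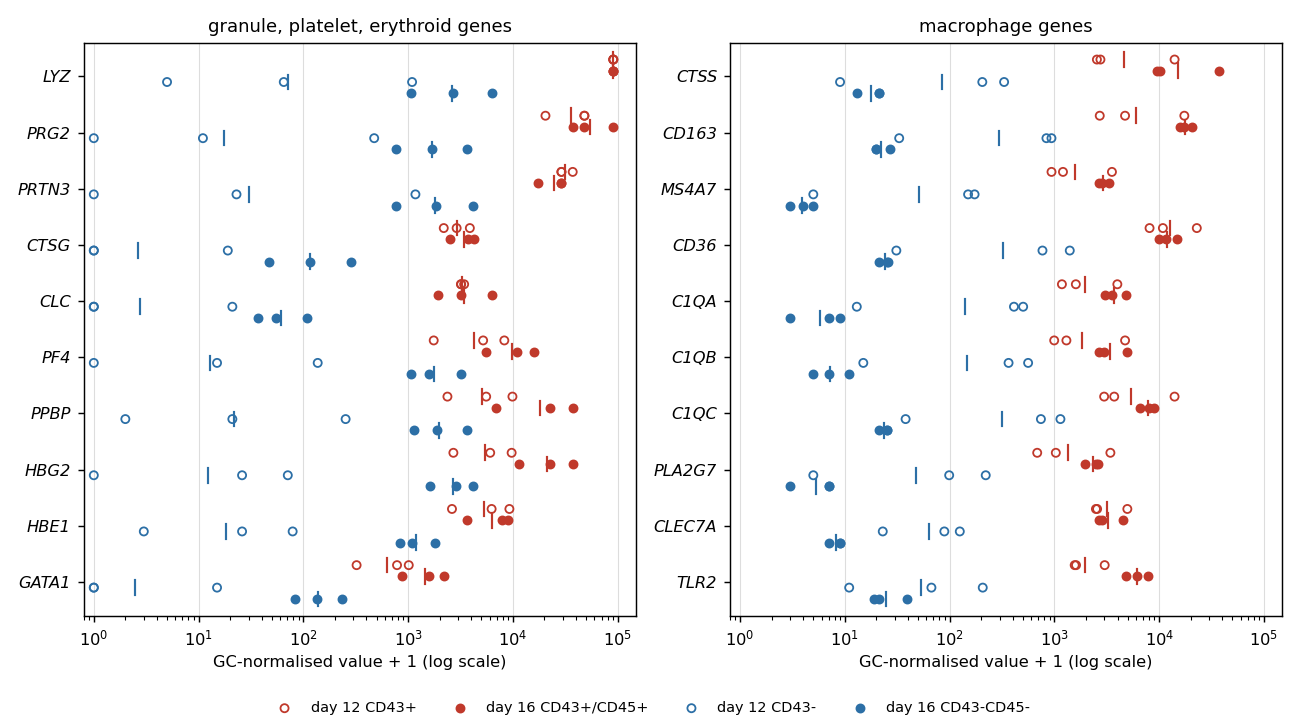
GC-normalised values plus 1 (log axis) of 10 granule, platelet and erythroid genes (left) and 10 macrophage genes (right), 1 point per replicate and a tick at the geometric mean, red for CD43+ and CD43+/CD45+ and blue for CD43- and CD43-CD45- cells, open at day 12 and filled at day 16. On the left the filled blue points lie to the right of most open ones (PF4 from 1062 to 3224 against 0 to 136), and on the right they lie at the low end of the spread of the open ones (CD163 at 19 to 26 against 32 to 936).

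Immediate early and AP-1 genes, induced within minutes of a stimulus by growth factors, cytokines or handling, turned between the days. Of 22, 9 were higher and 0 lower in CD43+/CD45+ cells at day 16, whereas 0 were higher and 7 lower in CD43+ cells at day 12. The difference between days was called higher for 18 of the 22, against 2.86% of all genes, and for 18 or 19 when any replicate of the 4 populations was left out or only those populations entered the fit. EGR2 stood at 3748, 2754 and 3888 in CD43+/CD45+ and 64, 122 and 84 in CD43-CD45- cells at day 16, and at 674, 291 and 480 in CD43+ and 714, 758 and 700 in CD43- cells at day 12 (change 5.95, SE 0.76, adjusted p = 6.2e-06). EGR3 changed by 5.84 (SE 0.88), and EGR4, of the same family but not on the list, by 7.24 (SE 1.09). NR4A3 stood at 75, 52 and 64 against 6, 1 and 10 at day 16 and at 788, 402 and 558 against 952, 1042 and 1734 at day 12, so that both populations were lower at day 16. FOS, named after its values were seen, stood at 90700 in all 3 CD43+/CD45+ replicates and 17284, 25776 and 25776 in CD43-CD45- cells, and at 20338, 11964 and 10397 in CD43+ and 90700, 90700 and 25776 in CD43- cells at day 12. The study describes a recovery incubation of at least 1 hour after dissociation and a timed antibody staining before sorting, but no durations for each day or sample. The part of these steps in these values was not tested.

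**Figure D5:**
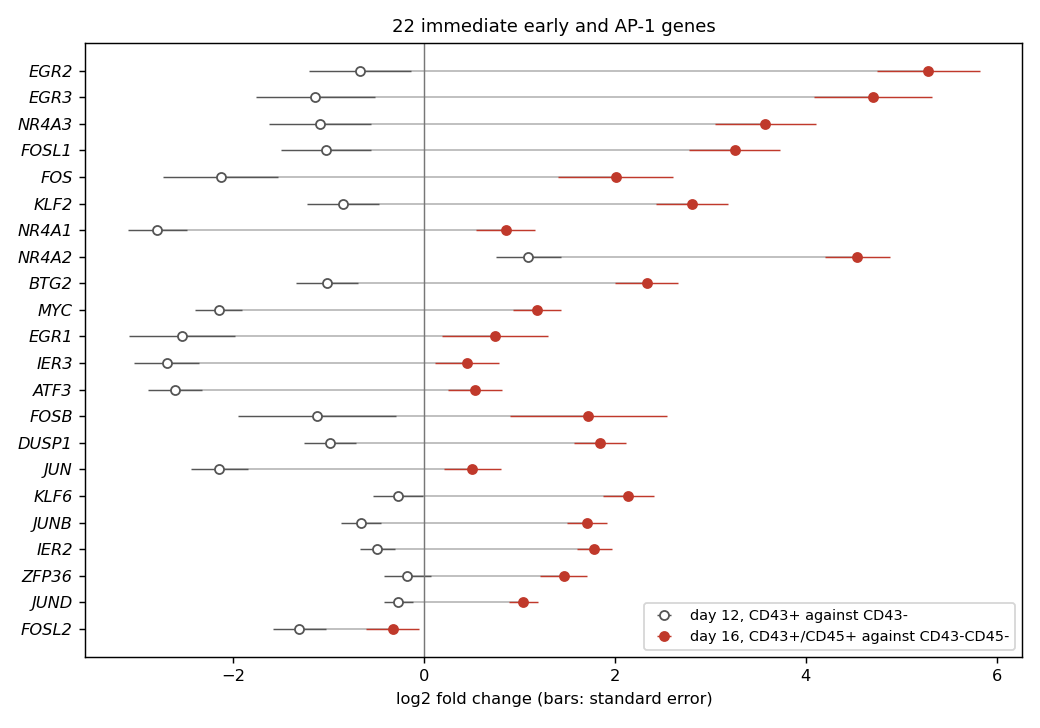
Log2 fold change of 22 immediate early and AP-1 genes at day 12 (open points, CD43+ against CD43-) and at day 16 (filled points, CD43+/CD45+ against CD43-CD45-). Bars are 1 standard error (n = 3 against 3) from the spread pooled over the whole fit, so they are equal on both days. A grey line joins the days. The filled points lie to the right of the open ones for all 22 genes, furthest for EGR2 and EGR3.

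Some changes came from a difference called at day 12 and not at day 16. CXCL12 averaged 25 in CD43+ and 935 in CD43- cells at day 12 and overlapped at day 16, a change of 4.95 (SE 0.67). HES5, a Notch target, averaged 1 and 113 at day 12 and was at 3 or less in all 6 day 16 samples, and SST, somatostatin, averaged 2 and 309 at day 12 and was at 14 or less at day 16. EYA4 averaged 3 and 135 at day 12 and stood at 14, 36 and 18 against 6, 6 and 5 at day 16. MIR3180-1, a primary transcript of a duplicated microRNA gene whose copies can share reads, was instead called in opposite directions on both days, at 28, 18 and 19 against 0, 1 and 2 at day 16 and at means of 2 and 38 at day 12, and its day 16 call was lost with a pseudocount of 10 (log2 fold change 1.52).

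Of 16 housekeeping genes 1 was called, HPRT1 at 546, 534 and 702 against 110, 111 and 105. Of the other 15, 12 passed the adjusted p alone, which 67.4% of all genes did, with log2 fold changes from -1.25 for HSP90AB1 to 1.38 for GAPDH. GAPDH was not called, at 48030, 90700 and 48030 against 22812 in each CD43-CD45- replicate, and ACTB was at 48046 in each CD43+/CD45+ replicate and 18763, 25856 and 22830 in the others. The median log2 fold change of the 16 was 0.58, against 0.14 over all genes tested.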

How the data were processed

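RNA of sorted H1 cells was sequenced at 2 companies, and no sequencing batch could be tested. Per the labels and the study's methods, reads were mapped by the authors to Ensembl transcripts, using RSEM with Bowtie2 (the submitters' processing notes also name STAR 2.7, bcl2fastq and hg38), normalised tag counts for GC content with EDASeq and called differential expression with DESeq2. The deposited values are whole numbers that are neither raw counts nor CPM and were treated as a normalised score. The deposited table also holds each gene's GC content in percent. The 34 samples hold the same sorted values, so no depth or counting error can be given. Use of strand is not stated, so overlapping and antisense genes are uncertain.

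Groups came from the sample labels. The test was limma's moderated linear model with a mean-variance trend (version 3.58.1, R 4.3.3), fitted once to log2(value + 1) of the 33 replicated samples (11 populations) over 19788 genes with at least 10 in at least 3 samples, without a replicate block. Thresholds were an adjusted p of 0.05 and a fold change of 4. The fit was tested on simulated data. Exact tests of 3 against 3 samples cannot go below p = 0.1 and were not used. Per the study the replicates are independent preparations.

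Gene lists (46 lists) are described by counts, with no set test. Genes were named by rule: the 12 largest changes each way (called, not overlapping, not at 0 in a population, without a clone name), the 5 largest per list and members called against its majority, the sort antigens, 10 transcription factors, the 8 largest changes each way between days, and set ligand-receptor pairs. The comparison, lists and rule were chosen with earlier results of these data known. Promoters came from RefSeq (GRCh38.p14), and gene types from GENCODE v29, which held 20148 of the 20255 identifiers. Figures used Python 3.11.15 with matplotlib 3.10.9.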

Additional observations from a re-analysis of the deposited data

Results flagged for a closer look

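The results below differed between days by the test of the difference itself, the limma contrast of the day 16 log2 fold change minus that of day 12. In all 995 genes passed, 566 with a larger and 429 with a smaller value at day 16.

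The largest rises on the log2 scale were 7.24 for EGR4, 6.49 for HES5, 6.12 for MIR3180-1, 5.95 for EGR2, 5.84 for EGR3, 5.63 for SST, 5.53 for C1QA and 5.47 for EYA4. Among immediate early and AP-1 genes 18 of 22 passed as rises. HES5, SST and EYA4 were called lower at day 12 and were not called at day 16. Their rise includes the loss of a day 12 difference. For EYA4 it also includes a day 16 difference the other way, short of a call but without overlap between the populations.

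The largest falls were -8.93 for HBZ, -8.46 for HBA2, -7.11 for SLC4A1, -6.27 for PRTN3, -6.00 for PRG2, -5.90 for PF4, -5.79 for HBG2 and -5.76 for HBE1, and 12 of 13 azurophil granule genes passed as falls. The value of PRG2 fell short of the threshold without day 12 CD43- replicate 1 (-3.94, adjusted p = 0.097) and without 7 other replicates, 1 at a time. Groups of 3 samples were not tested for single outlying samples.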

How the results depend on the processing

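Of 281 called genes named by the rule, 260 kept their call under every alternative tried, and 0 reversed. Another 21 lost it under at least 1, 15 of them with a pseudocount of 10 and 4 with 0.1 (PF4, PPBP, PRTN3 and HBG2, limma adjusted p = 0.092, 0.094, 0.086 and 0.11). The rule took mostly the largest fold changes, so this share does not carry over to the 5101 calls. Among the alternatives, quantile normalisation could change nothing, because each sample already holds the same set of values. The 5101 calls at day 16 were 8958 at a fold change of 2 (4792 higher, 4166 lower) and 13335 on the adjusted p alone (7381 higher, 5954 lower), and ranged from 5010 to 5185 when a replicate was left out (2358 to 2459 higher, 2652 to 2726 lower). Higher calls were 1602 with a filter of at least 100 in 3 samples, where fewer genes were tested.

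The 995 changes between days were less stable: 1951 at a fold change of 2 (1108 higher, 843 lower), 3364 on the adjusted p alone (1567 higher, 1797 lower), 473 with a pseudocount of 10 (287 higher, 186 lower), 630 with the filter at 100 (247 lower), 537 when only the compared populations entered the fit (315 higher, 222 lower), and 850 to 1111 without 1 replicate (485 to 631 higher, 365 to 480 lower). Beyond the smaller number of genes or samples, the cause was not tested. In that smaller fit the changes of C1QA, MIR3180-1, PRTN3, PRG2, PF4 and HBG2 lost their call.

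The deviations of same-numbered samples correlated at -0.015, 0.025 and 0.042 at day 16 and at 0.084, 0.11 and 0.039 at day 12, where each sample correlated best with its own number. Only the replicate 2 pair of day 12 passed 0.1, and numbers were not read as pairs. With a replicate block 5105 genes were called at day 16 and 1068 changed between days. Reversals were limited to uncalled genes when a replicate was left out, with log2 fold changes at day 16 of -0.27 to 0.61 for HBA2, -0.33 to 0.67 for HES5, -0.27 to 0.34 for PDGFB, -0.20 to 0.069 for CXCL12, -0.083 to 0.048 for CXCR4 and -0.49 to 0.12 for LIF. Within these ranges the reversed values also included -0.02 for HBA2, 0.11 and 0.02 for PDGFB, 0.01 for CXCR4 and 0.02 for LIF. Median-of-ratios scaling moved the median of all genes from 0.14 to 0.12. The ceiling of 90700 and the unknown depth limit what these differences show.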
